A study of Mus musculus with 12 samples.

Results

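The genes described here encode the 3 chains of the high-affinity IgE receptor and 5 proteins that make or store mast cell mediators. They were chosen by gene symbol: Fcer1a, Ms4a2 and Fcer1g for the receptor, Hdc, Slc18a2 and Tph1 for histamine and serotonin, Hpgds for prostaglandin D2, and Il4. All 8 were measured, with 1 probe set each, among 19938 genes. The cells were c-Kit+ mouse bone marrow progenitors from animals that all carried CreER, a Cre recombinase switched on by tamoxifen, and all received 5 mg of tamoxifen daily for 3 days. The 12 arrays form 4 groups of 3: Myc virus in Zfx fl/y CreER cells (labelled Zfx ko), Myc virus in Zfx wt/y CreER cells (labelled Zfx wt), GFP virus in Zfx fl/y CreER cells, and GFP virus in Zfx wt/y CreER cells. Myc was therefore overexpressed from a retrovirus, and GFP-positive cells were sorted after 48 hours in culture. RNA was taken 4 days after the sort, and the medium held SCF, IL-3 and IL-6 (10 ng/mL of each cytokine). The series asks how loss of the zinc finger protein Zfx, encoded on the X chromosome, alters the expression program that Myc induces.

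Mast cells and basophils carry on their surface a receptor for IgE made of an alpha chain that binds the antibody, a beta chain that amplifies the signal, and a gamma chain dimer that passes it on. Cross-linking of bound IgE releases stored histamine and serotonin and starts the synthesis of prostaglandin D2 and of cytokines such as IL-4. Bone marrow progenitors grown with IL-3 and SCF are a common source of both cell types.

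The labels were checked first. The Zfx probe set averaged 1048 ± 63.2 with Myc and 1021 ± 64.9 with GFP in arrays labelled ko, against 992 ± 26.4 with Myc and 946 ± 72.9 with GFP in arrays labelled wt (intensity, SD, n = 3 each), so it was not lower in the arrays labelled ko. The sources used here do not place its probes relative to the deleted part of the gene, and the names ko and wt below are those of the labels. Myc averaged 5046 ± 259 in Myc ko and 5231 ± 343 in Myc wt, against 2701 ± 145 in GFP ko and 3014 ± 197 in GFP wt. All values are intensities on a linear scale, differences are between mean log2 intensities, and the median intensity of an array was 127 to 137.2. Every adjusted p is from limma over all 19938 genes, with 0.05 as the threshold. Arrays of the same replicate number deviated together, and a p "with the block" comes from a fit with that number as a term.

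The clearest pattern among the 8 genes was a split between the receptor chains. It describes values and calls in separate comparisons. The interaction of Myc with genotype was past the threshold for none of the 8 genes, with or without the block. Ms4a2, the beta chain, was higher with Myc in wt cells and was not higher with Myc in ko cells. Fcer1a, the alpha chain, was low in a single group, Myc with labelled Zfx loss. Without the block, its genotype call with Myc was lost in 10 of 12 fits that left out 1 array. With the block and all 12 arrays this call held (adjusted p = 0.00752). Fcer1g, the gamma chain, was lower with Myc in both genotypes by less than 2-fold, past the threshold with the block and not without it. The genes for the amine transporter Slc18a2 and the serotonin enzyme Tph1 fell with Myc in ko, and Tph1 was also lower with Myc in wt, past the threshold with the block.

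Fcer1a (probe set 10360338, gene at chr1:173221269-173227232 on GRCm38.p6) had 114, 458 and 259 in Myc ko, 495, 1244 and 1179 in Myc wt, 929.5, 817 and 1112 in GFP ko, and 879, 773 and 1287 in GFP wt, in the order of the replicate numbers. Each Myc ko array was below every array of the other 3 groups, whose means of 953 to 979 lay within their spread. With Myc in ko Fcer1a fell 3.97-fold (95% interval 1.91 to 8.25, adjusted p = 0.021, lower in 3 of 3 same-numbered pairs). With Myc in wt the log2 difference was -0.09 ± 0.48 (SE, adjusted p = 0.972), lower in 2 of 3 pairs. Between genotypes Fcer1a was 3.77-fold lower in ko than in wt with Myc (1.81 to 7.85, adjusted p = 0.0445); under the GFP virus the log2 difference was -0.02 ± 0.48 (SE, adjusted p = 0.997). The genotype call with Myc was lost in 10 of 12 fits that left out 1 array, with adjusted p up to 0.159; it held without Myc ko 2 and without Myc wt 1. The call for Myc in ko was lost without Myc ko 3, GFP ko 1 or GFP ko 3 (adjusted p up to 0.0692), and with only the groups compared (0.0574). The genotype call with Myc was also lost with the trended and robust prior (0.0688), the offset (0.0522), all named probe sets (0.0524) and only the groups compared (0.17). These alternatives were fitted without the block. With the block and all 12 arrays, adjusted p was 0.00363 for Myc in ko and 0.00752 for ko against wt with Myc. The value of Myc ko 1 was below its array's median intensity.

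Ms4a2 (probe set 10466216, chr19:11615517-11623790) had 283, 337 and 370.5 in Myc ko, 1187, 1654 and 2533 in Myc wt, 431, 366.5 and 435 in GFP ko, and 686, 615 and 906 in GFP wt. The Myc wt arrays were all above the rest, and neither ko group overlapped either wt group. Ms4a2 was 5.2-fold lower in ko than in wt with Myc (3.59 to 7.53, adjusted p = 0.00042, lower in 3 of 3 pairs), a call that held without each of the 12 arrays in turn. With GFP it was 1.77-fold lower in ko (1.22 to 2.56, 3 of 3 pairs), at adjusted p = 0.0997 and 0.011 with the block. With Myc in wt it rose 2.35-fold (1.63 to 3.41, adjusted p = 0.0108), and this adjusted p was 0.055 when only those groups entered the fit. With Myc in ko the difference was -0.32 ± 0.24 (log2, SE, adjusted p = 0.548), lower in 3 of 3 pairs. In order of the mean, Myc wt came first, then GFP wt, GFP ko and Myc ko. GFP ko differed from Myc ko at adjusted p = 0.548 and from GFP wt at 0.0997.

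Fcer1g (probe set 10360070, chr1:171229572-171234349) had 7227, 8145 and 4944 in Myc ko, 5453, 7267 and 4263 in Myc wt, 9951, 9948 and 8782 in GFP ko, and 8866, 9706 and 7893 in GFP wt. Its product also serves activating Fc receptors for IgG and several C-type lectins of other myeloid cells. All Myc arrays lay below all GFP arrays of the same genotype, and in each group number 3 was lowest. With Myc it was 1.44-fold lower in ko (1.05 to 1.98, adjusted p = 0.14; 0.00651 with the block) and 1.59-fold lower in wt (1.16 to 2.19, adjusted p = 0.0758; 0.00265 with the block), in 3 of 3 pairs each. The log2 difference between genotypes was 0.26 ± 0.21 under the Myc virus (SE, adjusted p = 0.711) and 0.12 ± 0.21 under the GFP virus (adjusted p = 0.929), higher in ko in 3 of 3 pairs both times. Across the 12 arrays its highest value was 2.33 times its lowest, against 11.3 times for Fcer1a and 8.94 times for Ms4a2.

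**Figure D1:**
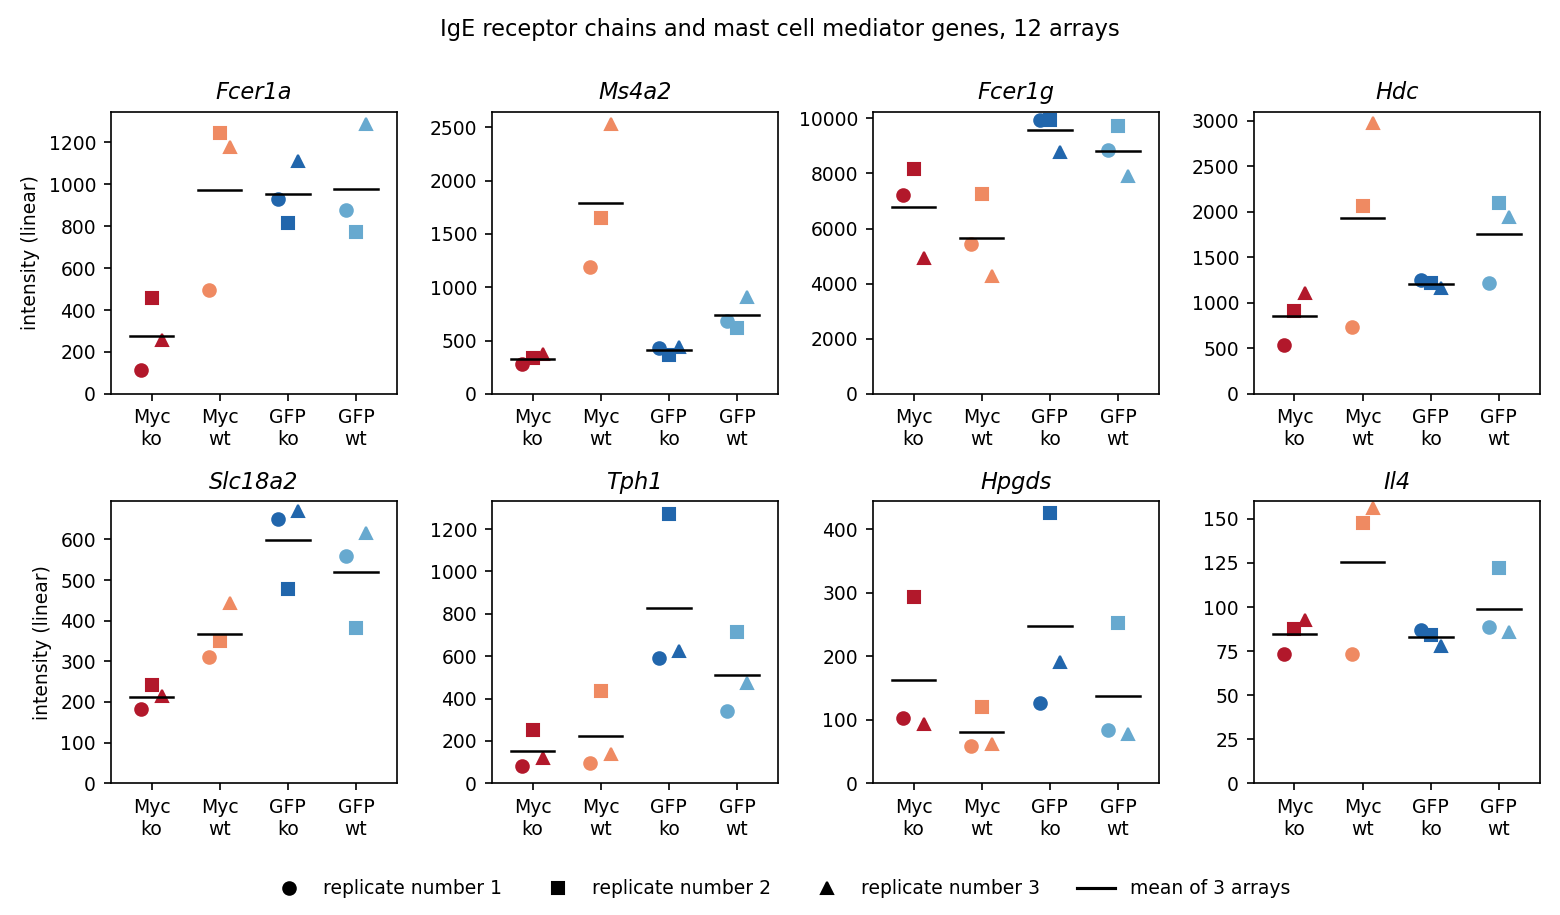
Linear intensity of the 8 genes on each of 12 arrays, by virus and labelled Zfx genotype (3 arrays a group, symbols give the replicate number, lines the group mean, each panel with its own axis from 0). Fcer1a is low in Myc ko, at 114 to 458; Ms4a2 is high in Myc wt, at 1187 to 2533; Tph1 and Hpgds are highest at number 2 in all 4 groups.

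The promoter windows of the receptor chains and of Slc18a2 are shown as examples. Each runs from 250 bases before to 50 after the RefSeq start on GRCm38.p6, 5′ to 3′ on the gene's strand: Fcer1a chr1:173227180-173227479 (minus), Ms4a2 chr19:11623670-11623969 (minus), Fcer1g chr1:171234300-171234599 (minus) and Slc18a2 chr19:59260628-59260927 (plus). Capitals mark AGATAA on either strand (TTATCT on the strand shown), a form of the site bound by GATA factors.
Fcer1a: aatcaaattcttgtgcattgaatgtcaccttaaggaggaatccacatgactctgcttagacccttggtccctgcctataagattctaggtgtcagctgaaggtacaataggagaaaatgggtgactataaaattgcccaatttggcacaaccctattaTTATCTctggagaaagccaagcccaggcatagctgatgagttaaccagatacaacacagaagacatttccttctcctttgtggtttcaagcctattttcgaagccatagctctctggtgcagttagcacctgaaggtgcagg
Ms4a2: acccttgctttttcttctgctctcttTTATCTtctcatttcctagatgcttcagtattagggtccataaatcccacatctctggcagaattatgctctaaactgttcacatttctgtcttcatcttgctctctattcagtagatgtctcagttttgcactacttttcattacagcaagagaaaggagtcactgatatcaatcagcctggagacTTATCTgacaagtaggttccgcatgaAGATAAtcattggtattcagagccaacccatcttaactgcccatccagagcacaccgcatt
Fcer1g: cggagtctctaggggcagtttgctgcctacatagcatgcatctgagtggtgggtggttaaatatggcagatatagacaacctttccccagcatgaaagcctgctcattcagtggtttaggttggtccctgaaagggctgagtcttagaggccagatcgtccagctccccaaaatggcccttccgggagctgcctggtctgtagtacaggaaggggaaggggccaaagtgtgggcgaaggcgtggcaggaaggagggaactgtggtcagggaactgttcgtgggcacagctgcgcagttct
Slc18a2: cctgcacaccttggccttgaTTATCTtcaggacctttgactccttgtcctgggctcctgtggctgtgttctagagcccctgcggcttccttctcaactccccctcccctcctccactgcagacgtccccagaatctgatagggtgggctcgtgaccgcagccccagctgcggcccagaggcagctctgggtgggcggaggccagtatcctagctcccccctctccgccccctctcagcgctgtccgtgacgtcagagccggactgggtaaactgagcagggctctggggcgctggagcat
Ms4a2 held 3 matches, Fcer1a and Slc18a2 1 each and Fcer1g 0. The windows of Hdc, Tph1 and Hpgds, not printed, held 0, so the windows shown hold most of the matches. AGATAA or TGATAA, searched on both strands, occurred in 4 of 10 windows of the 8 genes (Tph1 and Il4 have 2 windows each; the other match was a TGATAA in 1 Il4 window), against 18.6% of 32851 windows of this length. CACGTG, the E-box bound by Myc with Max, and AGGCCT, the core of the Zfx motif, were in 0 of the 10 windows, against 7.2% and 10.3% of all windows. Matches describe these letters in these windows and are not measured binding.

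Hdc (probe set 10487238, chr2:126593659-126624025) encodes histidine decarboxylase, which makes histamine. It had 535.5, 904 and 1108 in Myc ko, 736.5, 2064 and 2974 in Myc wt, 1249, 1212 and 1166 in GFP ko, and 1212, 2094 and 1942 in GFP wt. Every Myc ko array lay below every GFP ko array, while the wt groups overlapped widely, with Myc wt the most spread. Hdc was 2.04-fold lower in ko than in wt with Myc (1.02 to 4.06, adjusted p = 0.297; 0.0495 with the block, lower in 3 of 3 pairs). The other comparisons within a virus or a genotype were not past the threshold with or without the block: the log2 differences were -0.57 ± 0.45 for Myc in ko (adjusted p = 0.577), -0.04 ± 0.45 for Myc in wt (adjusted p = 0.987) and -0.49 ± 0.45 for ko against wt with GFP (adjusted p = 0.785).

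Slc18a2 (probe set 10464370, chr19:59260878-59296012) encodes VMAT2, which loads histamine and serotonin into granules. It had 183, 242 and 215 in Myc ko, 311, 349 and 443 in Myc wt, 649, 479 and 670 in GFP ko, and 559, 382 and 616 in GFP wt. Myc ko was below all other arrays and Myc wt overlapped GFP wt. Slc18a2 fell 2.8-fold with Myc in ko (2.04 to 3.83, adjusted p = 0.00181, 3 of 3 pairs), and this call held without each of the 12 arrays in turn. With Myc in wt it was 1.4-fold lower (1.02 to 1.91, adjusted p = 0.203; 0.0768 with the block), also in 3 of 3 pairs. Between genotypes it was 1.72-fold lower in ko with Myc (1.26 to 2.35, adjusted p = 0.0539; 0.0137 with the block), and with GFP the log2 difference was 0.22 ± 0.20 (adjusted p = 0.79).

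Tph1 (probe set 10563570, chr7:46644641-46672537) encodes the tryptophan hydroxylase that starts serotonin synthesis outside the brain. It had 83.6, 251 and 121 in Myc ko, 94.6, 438 and 139.5 in Myc wt, 589, 1272 and 624 in GFP ko, and 341, 716 and 474 in GFP wt. The values of Myc ko 1, Myc ko 3 and Myc wt 1 were below their array's median intensity. Number 2 was highest in each of the 4 groups, and within a number both Myc arrays were below both GFP arrays. Tph1 fell 5.69-fold with Myc in ko (2.32 to 13.9, adjusted p = 0.018). In wt it was 2.71-fold lower with Myc (1.11 to 6.65, adjusted p = 0.181; 0.00117 with the block), and both differences had 3 of 3 pairs. In fits without the block, the call in ko was lost without Myc ko 1, Myc ko 3 or GFP ko 2 (adjusted p up to 0.0682). With the block and all arrays, Tph1 was called lower with Myc in ko at adjusted p = 0.000105. Between genotypes the log2 difference was -0.40 ± 0.58 with Myc (adjusted p = 0.915) and 0.67 ± 0.58 with GFP (adjusted p = 0.765), neither past the threshold with the block.

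Hpgds (probe set 10545101, chr6:65117293-65144981), the prostaglandin D2 synthase of blood cells, gave a dim signal, below the array's median on 8 of 12 arrays. It had 103, 294 and 93 in Myc ko, 59.4, 120.5 and 62.5 in Myc wt, 127, 426 and 190.4 in GFP ko, and 84.1, 252 and 78.3 in GFP wt, again highest at number 2 throughout. Within a number ko was above wt in all 6 pairs of arrays, although the groups overlapped. Hpgds was 1.85-fold higher in ko with Myc (0.729 to 4.68, adjusted p = 0.624; 0.00576 with the block) and 1.84-fold higher in ko with GFP (0.725 to 4.66, adjusted p = 0.642; 0.00691 with the block). With Myc it was 1.54-fold lower in ko (adjusted p = 0.688; 0.0181 with the block) and 1.55-fold lower in wt (adjusted p = 0.728; 0.0211 with the block). Il4 (probe set 10385832, chr11:53612460-53618665), the cytokine that directs T cells to type 2 responses, stayed between 73.1 and 156, below the array's median on 10 of 12 arrays, and the other arrays were Myc wt 2 and Myc wt 3 at 147 and 156. No comparison of Il4 within a virus or a genotype was past the threshold with or without the block (log2 differences from -0.50 to 0.28).

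**Figure D2:**
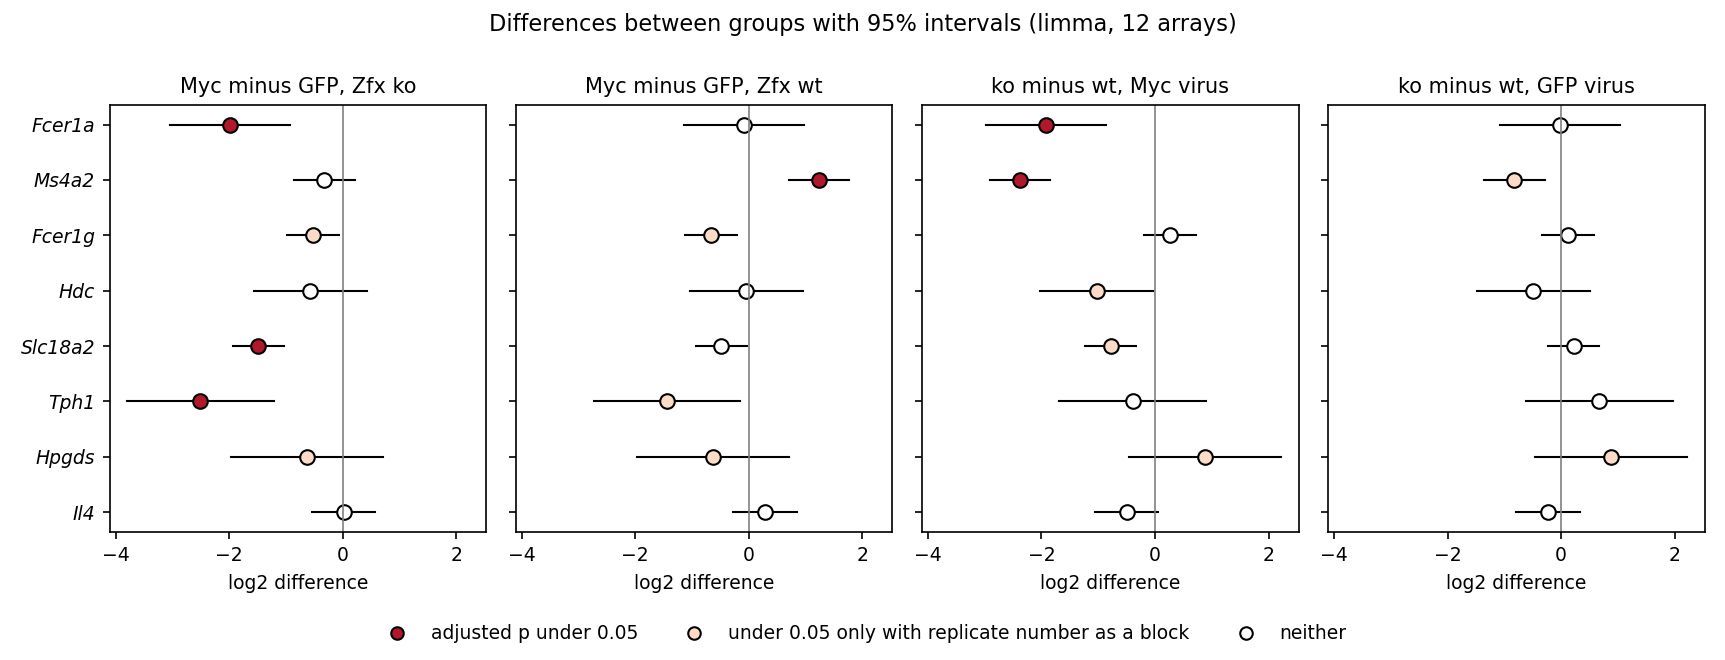
Difference in mean log2 intensity for the 8 genes in 4 comparisons, with 95% intervals from limma over 12 arrays. Filled points are past adjusted p 0.05, pale points only with the replicate number as a block; with Myc in ko, Fcer1a, Slc18a2 and Tph1 fell, at -1.99, -1.48 and -2.51.

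With Myc in ko, 0 of the 8 genes rose and 3 fell, where 8.58% and 4.59% of all genes did; with the block 0 rose and 5 fell, against 14.5% and 10.4%. In 5 of the 8 the Myc ko arrays lay wholly below GFP ko, as in 9.88% of all genes (0 of the 8 lay wholly above, 15.6% of all genes), and the median log2 difference was -0.60, against 0.01 over all genes. With Myc in wt, 1 rose and 0 fell (6.17% and 3.11% of all genes), or 1 and 3 with the block (12.2% and 8.25%), and the groups did not overlap for 1 higher and 1 lower gene (15.1% and 9.44%); the median was -0.29 against 0.00. For ko against wt with Myc, 0 rose and 2 fell (1.74% and 3.72% of all genes), or 1 and 4 with the block (6.05% and 8.03%), and the groups did not overlap for 0 higher and 3 lower genes (8.4% and 11.1%); the median was -0.64 against 0.00. For ko against wt with GFP, 0 passed in either direction (1.17% and 2.94%), and 1 rose and 1 fell with the block (5.12% and 7.12%), and the groups did not overlap for 0 higher and 1 lower gene (7.44% and 10.5%); the median was 0.05 against 0.00. Leaving out 1 array brought some further differences past the threshold. Without Myc wt 1 these were Hdc and Il4 between genotypes with Myc (adjusted p = 0.0237 and 0.0161), Il4 with Myc in wt (0.042) and Ms4a2 between genotypes with GFP, which also passed without Myc wt 3 (adjusted p down to 0.0335) and with only the groups compared (0.0494). Fcer1g with Myc in wt passed without Myc ko 3 or Myc wt 2 (down to 0.0269), with array weights (0.0282) and among genes above the median intensity (0.0475). Tph1 with Myc in wt passed without Myc wt 2 (0.0339) and with array weights (0.049). Slc18a2 between genotypes with Myc passed without GFP ko 2 or GFP wt 2 (down to 0.0284), with array weights (0.0197), above the median intensity (0.0371) and with a trended prior (0.0464). In bulk RNA, fewer cells of a type and less RNA per cell cannot be told apart. The comparisons share arrays in pairs, so their values stand side by side and are not independent of each other.

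Whether the difference with Myc itself depended on the genotype was tested as an interaction, the difference in ko minus that in wt. It was -1.55 for Ms4a2 (log2, SE 0.34), with -1.40, -1.55 and -1.72 at numbers 1, 2 and 3. Fcer1a had -1.90 (SE 0.67; -2.20, -1.52 and -1.98 by number), Slc18a2 -1.001 (SE 0.29; -0.98, -0.86 and -1.16), Tph1 -1.07 (SE 0.83) and Hdc -0.53 (SE 0.64). These 5 were negative at each of the 3 numbers, while Fcer1g had 0.14 (positive at all 3), Hpgds 0.01 (positive at 2 of 3) and Il4 -0.27 (positive at 1 of 3). None passed: limma called 0% of all genes for the interaction, with adjusted p of 1.00 for each of these genes, and 1 gene, not one of the 8, with the block (0.00502%), where adjusted p was 0.189 for Ms4a2 and 0.784 or more for the others. Ms4a2, Slc18a2 and Fcer1a, 3 of the 8, were below 0.05 before adjustment, as were 343 of all genes (1.72%). How many of all genes kept the same sign of the interaction at all 3 numbers was not counted. The signs given above are therefore description only.

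**Figure D3:**
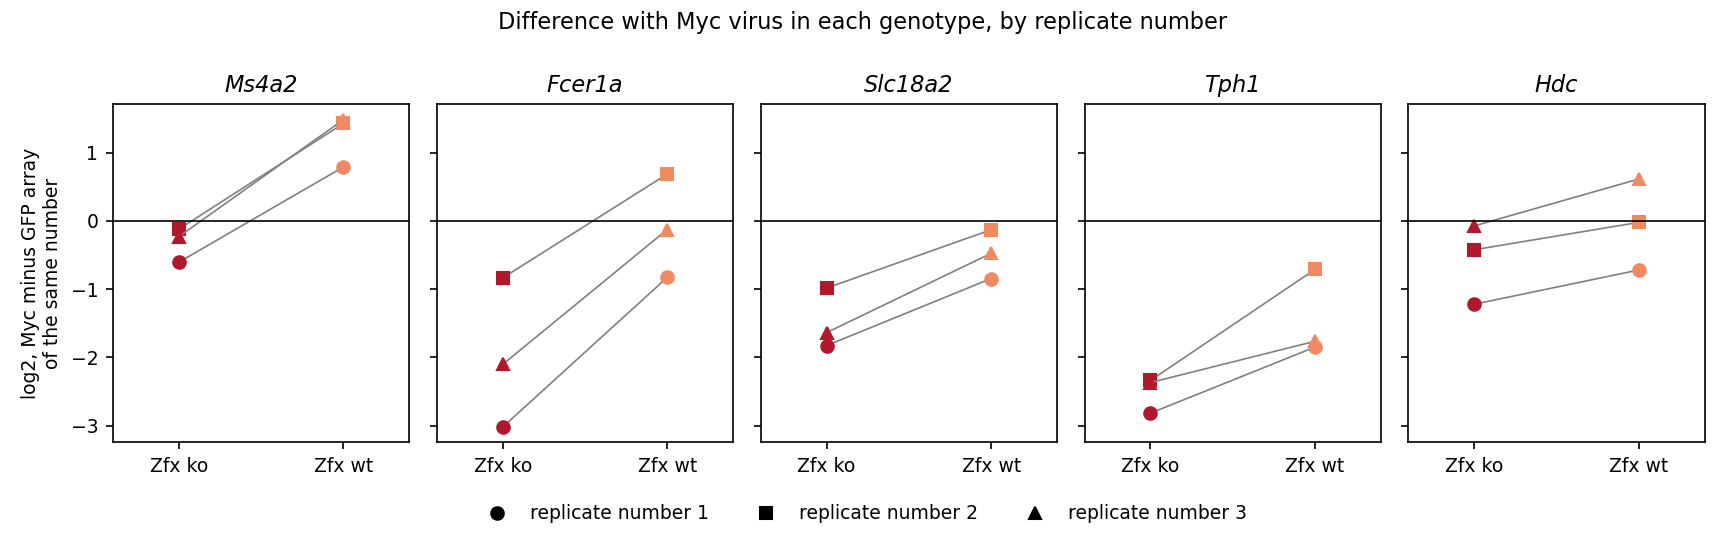
Log2 difference between the Myc and the GFP array of the same replicate number, in cells labelled Zfx ko (left) and Zfx wt (right), for the 5 genes whose interaction was negative at all 3 numbers; lines join the same number. For Ms4a2 the ko values are -0.61 to -0.12 and the wt values 0.79 to 1.48. Every line is higher in wt because the 5 genes were picked for that. Fcer1g, Hpgds and Il4 are not shown, and no interaction of the 8 genes was past the threshold.

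Of 29 measured genes for proteins that relay the IgE receptor signal, 15 fell and 0 rose with Myc in ko. Over all genes 4.59% and 8.58% did. In wt 8 fell and 0 rose, against 3.11% and 6.17% (medians -0.32 in ko and -0.26 in wt). With the block 18 fell and 0 rose in ko, against 10.4% and 14.5% of all genes. In wt the block gave 13 lower and 3 higher, against 8.25% and 12.2%. Rasgrp4, a Ras activator of mast cells, was 2.62-fold lower with Myc in ko (adjusted p = 0.00492) and 3-fold lower in wt (adjusted p = 0.00441), and Prkcb, a protein kinase C, was 1.85-fold and 1.66-fold lower (adjusted p = 0.00289 and 0.0089). Syk, the kinase that docks on the gamma chain, fell 1.58-fold in ko (adjusted p = 0.0362), as did Gab2, an adaptor, at 1.46-fold; in wt Syk was 1.56-fold lower at adjusted p = 0.0504, and 0.000147 with the block. Lcp2 and Cbl, an adaptor and a ubiquitin ligase, fell 1.39-fold and 1.31-fold with Myc in wt.

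By genotype the signalling list held Plcg1, a phospholipase C that releases calcium. It had 209, 179 and 196 in Myc ko, 549.6, 618 and 676 in Myc wt, 226, 193 and 265 in GFP ko, and 503, 467 and 516 in GFP wt, so that neither ko group overlapped either wt group. It was 3.15-fold lower in ko with Myc (adjusted p = 3.06e-05) and 2.19-fold lower with GFP (adjusted p = 0.000474), each in 3 of 3 pairs. With Myc 4 of the 29 fell and 0 rose in ko, among them Nfatc2 at 1.71-fold, Stim1 at 1.42-fold and Orai1 at 1.29-fold, a transcription factor, a calcium sensor and a calcium channel; with GFP Plcg1 was the 1 that fell and 0 rose (medians -0.08 and 0.04). With the block 6 fell and 1 rose with Myc, and 3 fell and 2 rose with GFP. Over all genes 3.72% fell and 1.74% rose in ko with Myc, and 2.94% and 1.17% with GFP. With the block these shares were 8.03% and 6.05% with Myc, and 7.12% and 5.12% with GFP.

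In a list of 12 receptors drawn up as partners of the gamma chain, 3 fell with Myc in ko and 3 in wt, with 0 up. With the block 6 and 7 fell. Over all genes 4.59% fell and 8.58% rose in ko, and 3.11% and 6.17% in wt. With the block 10.4% of all genes fell in ko and 8.25% in wt. The list is broader than the receptors that signal through this chain. Among others it holds Pirb, an inhibitory receptor that does not, and Cd300lb, which is known to signal through another adaptor, Tyrobp. Fcgr4, an IgG receptor, was 2.18-fold lower in ko (adjusted p = 0.0113) and 2.28-fold lower in wt (adjusted p = 0.0117), Cd300lb was 1.5-fold and 1.46-fold lower, Pirb 2.78-fold lower in ko and Fcgr3 1.59-fold lower in wt. In ko against wt Cd300lb rose 1.54-fold with Myc and 1.58-fold with GFP, the 1 gene of this list called in each. With the block 5 of the 12 rose in ko under each virus. Over all genes 1.74% rose with Myc and 1.17% with GFP, or 6.05% and 5.12% with the block. Cd300lb was dim with Myc in wt, at 115, 79.7 and 91.4, below the array median. Of the signalling and receptor genes named here, Rasgrp4, Prkcb, Plcg1 and Nfatc2 held their calls without each array in turn, whereas those of Syk, Gab2, Lcp2, Cbl, Stim1, Orai1, Pirb, Fcgr3 and Cd300lb were each lost without 1 or more arrays, and that of Fcgr4 in wt without Myc wt 3.

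In the list of amine handling, 2 of 16 rose and 1 fell with Myc in ko, and 2 rose and 0 fell in wt. Over all genes 8.58% rose and 4.59% fell in ko, and 6.17% and 3.11% in wt. Qdpr, which recycles the cofactor of tryptophan hydroxylase, rose 1.44-fold in ko and 1.48-fold in wt, Spr, which makes that cofactor, 1.4-fold in ko, and Ndst2, of heparin synthesis, 1.49-fold in wt; Srgn, the granule proteoglycan, fell 1.16-fold in ko. Of 15 eicosanoid genes 2 rose and 3 fell with Myc in ko, and 1 rose and 1 fell in wt. Alox5ap, the helper of 5-lipoxygenase, fell 1.52-fold in ko (adjusted p = 0.00171) and 1.44-fold in wt (adjusted p = 0.00459), Alox5, the 5-lipoxygenase, 2.09-fold in ko, Tbxas1, thromboxane synthase, 1.59-fold in ko, and Ptges2 rose 1.37-fold and 1.24-fold. Of 19 cytokine genes 1 fell with Myc in ko, Il6 (adjusted p = 0.0391), and 0 in wt. The Myc ko values of Il6, at 72.2, 94.9 and 115, were below the array median, so its fold is not given. Without the block, 0 genes of these 3 lists were called between genotypes. Over all genes 1.74% rose and 3.72% fell in ko with Myc, and 1.17% and 2.94% with GFP. With the block, 3 eicosanoid genes rose in ko with GFP, and 2 rose and 1 fell with Myc. Of the amine genes 2 rose with GFP, and 1 rose and 1 fell with Myc. In the cytokine list 1 gene fell under each virus. With the block 6.05% of all genes rose and 8.03% fell with Myc, and 5.12% and 7.12% with GFP. For Myc in ko the block gave 3 higher and 4 lower amine genes, 2 higher and 6 lower eicosanoid genes and 4 lower cytokine genes. In wt it gave 4 and 2, 2 and 4, and 0 and 4. Over all genes the block gave 14.5% higher and 10.4% lower in ko, and 12.2% and 8.25% in wt. The calls of Qdpr, Alox5ap, Tbxas1 and, in ko, Ptges2 held without each array in turn, and the others named from these lists were lost without 1 or more arrays.

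Of 18 transcription factors of the mast cell and basophil lineage, 1 fell and 1 rose in ko against wt with Myc (3.72% and 1.74% of all genes). Gata2, needed for both lineages, had 767, 884 and 1312 in Myc ko, 1486, 2809 and 3898 in Myc wt, 1323, 1084 and 1214 in GFP ko, and 1499.7, 1827 and 1961 in GFP wt. It was 2.64-fold lower in ko with Myc (adjusted p = 0.0252, 3 of 3 pairs), and Zfpm1, a cofactor of GATA factors, was 2.88-fold higher (adjusted p = 0.0184); with GFP 0 of the 18 were called. Over all genes 1.17% rose and 2.94% fell in ko with GFP. With the block 2 of the 18 rose and 3 fell with Myc, and 4 rose and 2 fell with GFP. Over all genes the block gave 6.05% higher and 8.03% lower with Myc, and 5.12% and 7.12% with GFP. Gata1, named after its values were seen, had 698, 967 and 1842 in Myc ko, 317, 496 and 778 in Myc wt, 546, 520 and 616 in GFP ko, and 218, 332 and 309.8 in GFP wt, with adjusted p of 0.131 with Myc and 0.217 with GFP for ko against wt, and 0.00859 and 0.0179 with the block. With Myc, Spi1, a myeloid regulator, fell 1.33-fold in ko and 1.3-fold in wt, and Ikzf1 and Etv6 fell 1.23-fold and 1.19-fold in ko (3 of 18 in ko, 1 of 18 in wt, 0 up; with the block 8 fell and 2 rose in ko, and 3 fell and 2 rose in wt). Among 21 surface receptors Cd69 and Itga2 fell 2.63-fold and 1.95-fold and Ptger3 rose 1.67-fold with Myc in ko, and without the block 0 were called in wt or between genotypes. With the block 11 of the 21 fell and 1 rose with Myc in ko, and 5 fell and 1 rose in wt. In ko against wt the block gave 3 lower and 1 higher with Myc, and 4 higher with GFP. With Myc, 4.59% of all genes fell and 8.58% rose in ko, and 3.11% and 6.17% in wt. With the block 10.4% fell and 14.5% rose in ko, and 8.25% and 12.2% in wt. Each of the calls made without the block in this paragraph was lost without 1 or more of the 12 arrays, Gata2 without Myc ko 1, Myc ko 2, Myc wt 2 or Myc wt 3 (adjusted p up to 0.086). Kit, the SCF receptor, had 691 to 1139 in Myc ko, 691 to 1281 in Myc wt, 856 to 1499 in GFP ko and 890 to 1582 in GFP wt.

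**Figure D4:**
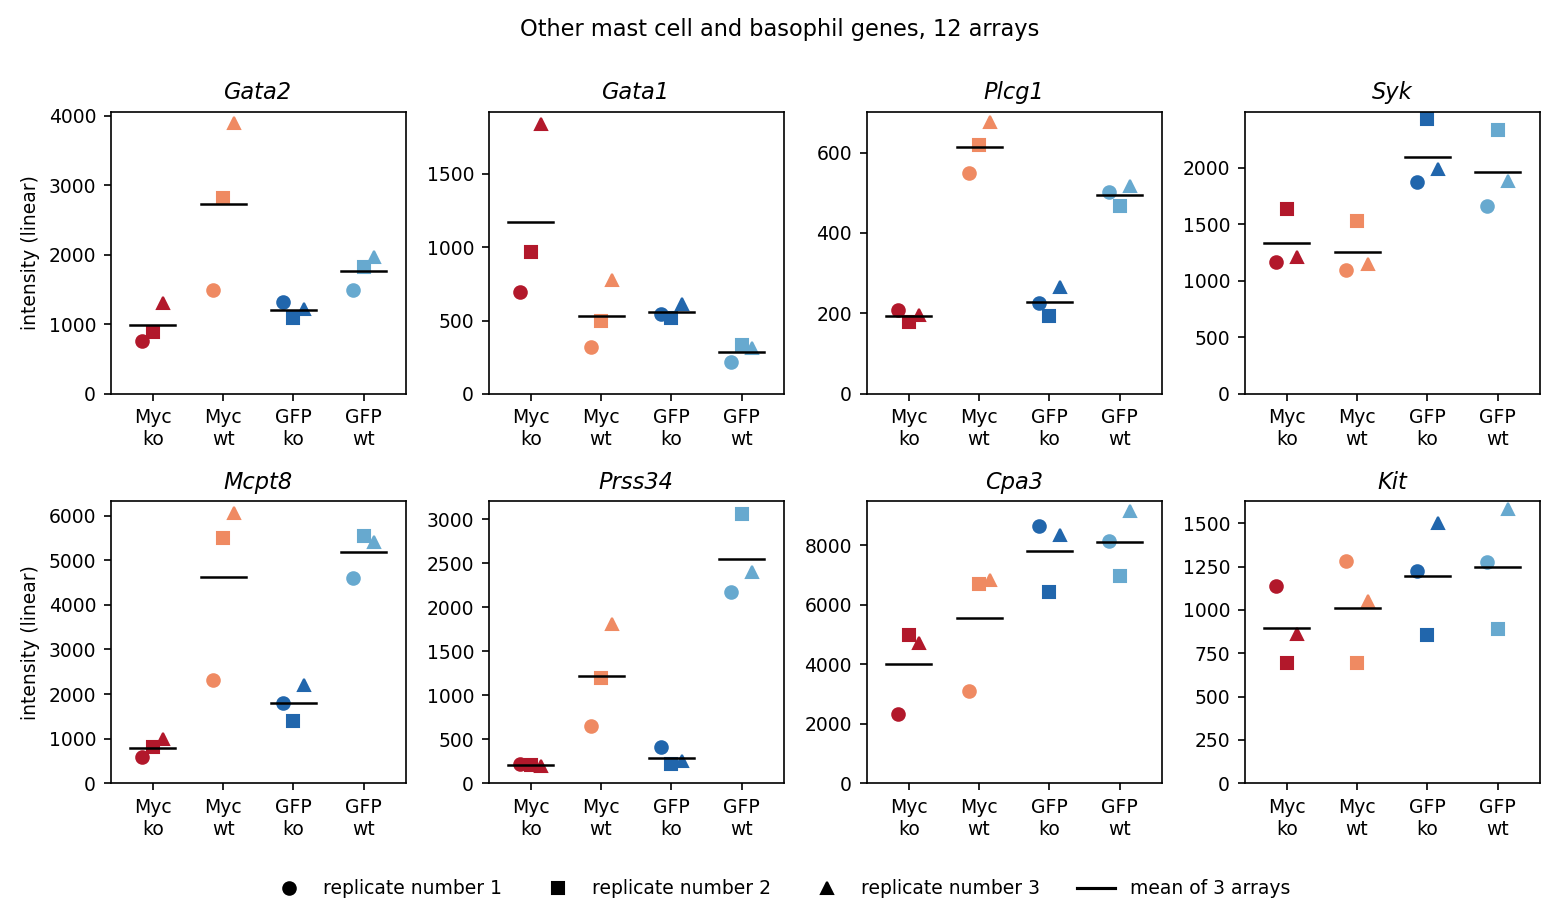
Linear intensity of 8 genes that accompany the receptor genes in mast cells and basophils, on each of 12 arrays (symbols give the replicate number, lines the group mean, each panel from 0). Plcg1, Mcpt8 and Prss34 are lower in ko than in wt under both viruses, with Mcpt8 at 598 to 999 in Myc ko and 2304 to 6050 in Myc wt.

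Markers of mast cells and basophils differed between the groups too, and not always as the 8 genes did. With Myc in wt all 12 proteases had a negative log2 difference, as did 6 of the 8 genes, while Ms4a2 rose 2.35-fold. In ko against wt with GFP, Mcpt8 and Prss34 were lower, while 0 of the 8 genes were called without the block. With the block, Ms4a2 was called lower there too (adjusted p = 0.011), and Hpgds higher (0.00691). Mcpt8 and Prss34 are proteases of mouse basophils. In ko against wt they were 5.42-fold and 5.44-fold lower with Myc (adjusted p = 0.00236 and 0.00235). With GFP they were 2.92-fold and 8.98-fold lower (adjusted p = 0.029 and 0.000525). In all, 2 of the 12 proteases were called with Myc and 3 with GFP, or 3 and 5 with the block. Over all genes 3.72% fell with Myc and 2.94% with GFP, or 8.03% and 7.12% with the block. The third with GFP was Mcpt4. It was dim, at 52.6 to 57.8 in GFP ko and 69.5 to 132 in GFP wt, so its fold is not given. With Myc 6 of the 12 fell in ko and 7 in wt, with 0 up (4.59% and 3.11% of all genes fell). With the block 9 and 8 of the 12 fell, against 10.4% and 8.25%. Mcpt2 was among them, with 47.7, 176 and 74.5 in Myc ko, 297, 462 and 201 in Myc wt, 1852, 1249 and 3190 in GFP ko, and 3743, 2182.3 and 5759 in GFP wt. Gzmb was another, with 69.1 to 84.7 in Myc ko, 74.8 to 523 in Myc wt, 541 to 985 in GFP ko and 867 to 1136 in GFP wt. Several of these Myc values were below the median intensity of an array, so the folds of both genes are not given. The calls of Gzmb in wt and of Mcpt4 were also lost without 1 or more arrays. The Mcpt8 call with GFP was lost without any of 5 arrays (adjusted p up to 0.107) and held with Myc. The 12 proteases' summed intensity was 14931 to 16665 in Myc ko and 18878 to 27664 in Myc wt. With GFP it was 21841 to 28288 in ko and 32443 to 38974 in wt. Much of each sum was Ctsg alone, at 8851 to 11200 in Myc ko and 11145 to 12197 in Myc wt. With GFP Ctsg was 10905 to 12903 in ko and 12683 to 13810 in wt, so the sums describe the other proteases poorly. Cpa3, the mast cell carboxypeptidase, was well above the array median everywhere, at 2330 to 4998 in Myc ko, 3106 to 6837 in Myc wt, 6421 to 8639 in GFP ko and 6984 to 9142 in GFP wt. Mrgprb2, a receptor of connective tissue mast cells, stayed between 29.8 and 34.3 on all 12 arrays. The part of these markers in the results above was not tested.

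Markers of other lineages moved as well. Of 9 erythroid genes 6 rose with Myc in ko, 1 in wt, and 4 in ko against wt with Myc. Over all genes 8.58%, 6.17% and 1.74% did. The summed intensity of the 9 was 7403 to 11620 in Myc ko and 4920 to 6161 in Myc wt. With GFP the sum was 5001 to 6039 in ko and 4332 to 5493 in wt. Of 15 neutrophil genes 10 fell in ko and 7 in wt with Myc, or 15 and 14 with the block. Over all genes 4.59% and 3.11% fell, or 10.4% and 8.25% with the block. In ko against wt, Mmp8 was called higher with Myc and with GFP (2.13-fold and 2.64-fold), and Chil3 lower with Myc (2.86-fold). The other neutrophil genes were not called there without the block. With the block 3 rose and 1 fell with Myc, and 2 rose and 0 fell with GFP. Over all genes 1.74% rose and 3.72% fell with Myc, and 1.17% and 2.94% with GFP. With the block these shares were 6.05% and 8.03%, and 5.12% and 7.12%. The neutrophil sums were 47733 to 54801 in Myc ko and 40568 to 55612 in Myc wt. With GFP they were 77936 to 99228 in ko and 78804 to 98740 in wt. The 8 megakaryocyte genes summed to 6452 to 19189 in Myc ko and 2330 to 8311 in Myc wt. With GFP they summed to 23255 to 30191 in ko and 8137 to 15694 in wt. Clec1b was lower with Myc in ko, and Clec1b and Treml1 were higher in ko with GFP. With the block 6 of the 8 rose in ko with Myc and 7 with GFP, against 6.05% and 5.12% of all genes. Eosinophil (8 genes), monocyte and macrophage (11) and lymphoid (12) lists had 0 genes called by limma in the 4 comparisons without the block, and 0 to 3 a comparison and direction with it, with sums of 3612 to 8524, 4894 to 8277 and 1603 to 2080 in Myc ko against 3553 to 10841, 3810 to 7246 and 1660 to 2283 in Myc wt, 6406 to 10692, 7723 to 11893 and 2137 to 2896 in GFP ko, and 10785 to 13572, 5170 to 10335 and 2141 to 3240 in GFP wt. Their part in the results was not tested.

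Genes with the most similar profile were sought by Pearson correlation of log2 intensity over the 12 arrays, which share their 4 groups and 3 replicate numbers, so these are descriptions. Closest to Fcer1a were Fut8, Rabac1 and Chil3 (0.953, 0.935 and 0.915), and to Ms4a2 Pard6g, Nlgn2 and Bloc1s3 (0.962, 0.96 and 0.955). Fcer1g was closest to Map4, Rel and Ccn3 (0.976, 0.971 and 0.967), Hdc to Cyp11a1, Aqp9 and Hgf (0.964, 0.956 and 0.93), Slc18a2 to Cpne2, Erg and Smpd5 (0.966, 0.94 and 0.933), and Tph1 to Dach1, Syk and St3gal2 (0.962, 0.962 and 0.96). Among the 8 genes the highest value was 0.85, between Fcer1a and Slc18a2, while the receptor's own chains gave 0.57 for Fcer1a with Ms4a2, 0.23 for Fcer1a with Fcer1g and -0.51 for Ms4a2 with Fcer1g.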

How the data were processed

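RNA was measured on 12 single-colour arrays, 3 in each of 4 groups assigned by title, because the treatment label reads the same for both viruses. The deposited values are intensities, summarised by the authors with RMA per the submitters' processing notes. They turned out to be linear rather than log2 as first assumed, and were log2-transformed without an offset. Of 35556 probe sets, 21789 had exactly 1 gene symbol in the platform annotation, and the brightest per gene gave 19938 genes, 19856 of them matched to RefSeq by gene ID. No filter on dim probe sets was used. Neither the array software nor a genome build is given in the sources used here; coordinates and promoters are RefSeq's on GRCm38.p6.

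limma 3.58.1 in R 4.3.3 (lmFit, eBayes) fitted group means over all 12 arrays, with Benjamini-Hochberg adjustment; the code was tested on simulated data. Arrays of the same number deviated from their groups together (r from 0.40 to 0.85 over 18 pairs, median 0.64). The numbers were therefore taken to pair the arrays in the counts of pairs and in a blocked fit. The main fit did not use them, so its intervals, p-values and fits leaving out 1 array ignore the pairing. Results of the blocked fit are given for the 8 genes where they change a call. They are also given for the Fcer1a and Tph1 calls that were lost without 1 array, and mainly as counts for the other lists. The labels do not say what a number shares, nor that arrays are separate cultures or animals. The p-values therefore set a difference against the spread between arrays, with each gene's variance moderated over all genes. The number of arrays limits the precision. Replicates correlated at 0.9846 to 0.9926, and 0 pairs were identical.

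The 8 genes and the other lists were chosen with earlier results of these data known. Beside the 8 genes, up to 4 genes past the threshold per list and comparison were picked by size of change. Defining markers, Zfx, Myc and the 3 closest profiles were added. Of the picked genes, the erythroid ones are given as counts and sums, and only some neutrophil and protease genes are named. The alternatives were the replicate block, an offset of 32, median centring, a second quantile normalization, array weights, fits of only the groups compared, a robust trended prior for the variance, all named probe sets, a filter at the median intensity, and leaving out each array.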

Additional observations from a re-analysis of the deposited data

Results flagged for a closer look

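Of the 8 genes, 3 moved one way in every same-numbered pair of one condition and the other way in every pair of the other. This rule was applied to the 8 genes only, so the share of all genes that meet it is not known. Ms4a2 differed with Myc by -0.32 (log2) in ko and by 1.23 in wt. Slc18a2 differed between ko and wt by -0.78 (log2) with Myc and by 0.22 with GFP. Tph1 differed between ko and wt by -0.40 (log2) with Myc and by 0.67 with GFP. The interaction, which tests each of these differences directly, gave limma adjusted p of 1.00 for all 3 genes, and 0.189, 0.784 and 0.831 with the block for Ms4a2, Slc18a2 and Tph1. Groups of 3 arrays are too small for the search for single outlying arrays.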

How the results depend on the processing

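With the replicate block, the genes called were 4959 for Myc in ko, 4082 for Myc in wt, 2808 for ko against wt with Myc, 2440 with GFP and 1 for the interaction, against 2626, 1851, 1089, 819 and 0 without it. Of the 8 genes, 5, 4, 5 and 2 were called with the block in the first 4 of these. With array weights 3209 genes were called for Myc in wt and 1610 for ko against wt with GFP, and 3 of the 8 for Myc in wt. With only the groups compared, 1418 genes were called for Myc in ko and 562 for ko against wt with Myc; of the 8, 2 were called for Myc in ko, 0 for Myc in wt, 1 for ko against wt with Myc and 1 with GFP. Above the median intensity 2 of the 8 were called for Myc in wt. With the offset, and with all named probe sets, 1 of the 8 was called for ko against wt with Myc. Leaving out each array gave 1395 to 2555 genes for Myc in ko, 838 to 2044 for Myc in wt, 578 to 1098 for ko against wt with Myc, 410 to 802 with GFP and 0 to 4 for the interaction; of the 8, 1 to 3, 1 to 3, 1 to 4, 0 to 1 and 0 to 0. Differences near 0, none of them called, changed sign. The Hpgds interaction was -0.0316 (log2) after a second quantile normalization, -0.0309 with the offset, -0.44 with array weights, and -0.54 to 0.49 leaving out each array. Hdc with Myc in wt was 0.0747 with array weights and -0.47 to 0.54 leaving out each array. Fcer1a between genotypes with GFP was 0.00271 after a second quantile normalization and -0.17 to 0.20 leaving out each array. Leaving out each array gave -0.0446 to 0.35 for the Fcer1g interaction, -0.0512 to 0.12 for Il4 with Myc in ko, -0.32 to 0.34 for Fcer1a with Myc in wt and -0.86 to 0.25 for Tph1 between genotypes with Myc. The cause of these changes was not tested. Centring arrays on their medians changed no call or direction of the 8 genes. Hpgds and Il4 were dim, and so were the low values of Tph1 and 1 of Fcer1a, which limits what they can show.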
